A study of Mus musculus with 12 samples.

Results

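The subject is polyadenylated RNA of hepatocytes isolated from mouse liver at postnatal day 14, with and without deletion of *Cdk1* in these cells. The series holds 12 RNA-seq libraries, and the 6 libraries compared here were all those labelled as isolated hepatocytes, 3 from wild-type (WT) mice and 3 from Cdk1Liv-/- mice. The other 6 libraries are whole liver of the same genotypes and age and entered the gene filter, the test of where a change in hepatocytes differed from that in whole liver, and an alternative fit over all libraries. Cdk1Liv-/- mice carry floxed *Cdk1* alleles that are recombined by Cre under the Albumin promoter, which is active in hepatocytes and in their progenitors from before birth. Cre therefore acted in a lineage that also gives rise to bile duct cells, and some cells of either kind may keep the undeleted allele. The study did not detect CDK1 protein in Cdk1Liv-/- hepatocytes at this age and describes the deletion in them as complete. The methods state that male mice were used, and that experiments had biological replicates, while the labels do not say which animals the 3 libraries of a group came from, so the tests measure the spread between these libraries.

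CDK1 is the kinase that, with B-type and A-type cyclins, drives entry into mitosis. Liver cells that cannot enter mitosis can still copy their DNA, and hepatocytes commonly hold more than a single set of chromosomes. Hepatocytes also make most plasma proteins, clear drugs and bile acids, and burn or build fat, each with its own set of enzymes, and they answer inflammatory cytokines with the acute phase proteins.

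Values are FPKM, fragments per kilobase of transcript, scaled to the mapped fragments of each library. All log2 fold changes compare Cdk1Liv-/- with WT hepatocytes on log2(FPKM + 0.5), which understates changes of genes with low values. A gene passed the test at a limma adjusted p of at most 0.1 over the 17386 genes with a mean of at least 0.1 FPKM, and it was called if its log2 fold change was also at least 1 in size. Below, "rose" and "fell" are used only of genes that passed the test, and amounts given for them are log2 fold changes. Of all genes tested, 4.20% were called higher and 2.17% called lower, while 12.1% passed the test as higher and 6.61% as lower. The 3 libraries of each genotype did not overlap for 34.0% of all genes. Over all tested genes the median log2 fold change stood at 0.05. Counts moved when single libraries were left out, with fewer samples in each such fit. Genes called lower went from 377 to 168 without WT replicate 1, 592 without WT replicate 2, and 250, 200 and 175 without Cdk1Liv-/- replicates 1, 2 and 3. Genes that passed as lower went from 1149 to 402 without WT replicate 1, 763 without WT replicate 3, and 664, 647 and 497 without Cdk1Liv-/- replicates 1, 2 and 3. Those that passed as higher went from 2108 to 1157 without WT replicate 1 and 1274 without WT replicate 2. For the members of a gene list, such a value is given where a count moved by over 1.5 times and by more than 1 gene. The first principal component of the 6 libraries held 57.4% of the variance and separated the genotypes, and the second held 15.4%. Depth, read from the steps between low FPKM values, was estimated at 38500000 to 49700000 fragments in WT and 34800000 to 40400000 in Cdk1Liv-/- libraries, with 69.9% to 72.8% of the low values within 0.15 of a whole fragment.

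The label of isolated hepatocytes was checked against hepatocyte products and against markers of other liver cells. Albumin (*Alb*) was at 60008, 64298 and 62222 FPKM in WT and 41868, 44889.8 and 39898 FPKM in Cdk1Liv-/- libraries, or 9.03% to 9.40% of all FPKM in WT and 6.0% to 6.92% in Cdk1Liv-/-. The libraries did not overlap, but the difference did not pass the test (log2 fold change -0.56, limma adjusted p = 0.376). It passed in 4 of the 11 other settings tried, with an adjusted p down to 0.0158. Markers of other cells were present in every library, and none of the lists had a defining marker at 0 in all 6. The 14 markers of sinusoidal endothelial cells, which line the liver's capillaries, summed to 219, 149 and 410 FPKM in WT and to 101, 63.4 and 74.8 FPKM in Cdk1Liv-/- libraries. For Kupffer cells and macrophages the sums were 516, 309 and 885 FPKM against 305, 244 and 224 FPKM, and for stellate cells and fibroblasts 271, 160 and 584 FPKM against 155, 139 and 123 FPKM. Erythroid markers summed to 155, 117 and 593 FPKM in WT and to 77.1, 104 and 28.6 FPKM in Cdk1Liv-/- libraries. WT replicate 3 was the highest of the 6 libraries in each of these lists. Every WT library was above every Cdk1Liv-/- library in the sums of endothelial, stellate and erythroid markers. The Kupffer sums did not overlap either, but without *Slc40a1*, 1 of these 16 markers, they were 437, 239 and 793 FPKM in WT and 274, 210.45 and 193 FPKM in Cdk1Liv-/- libraries and overlapped. The gap in stellate sums was narrow, between 160 FPKM in WT replicate 2 and 155 FPKM in Cdk1Liv-/- replicate 1. The marker *Reln* held 47.6 and 33.3 FPKM of these sums, and without it the stellate sums overlapped. For B cells the sums were 11.4, 9.26 and 27.7 FPKM in WT against 7.92, 4.66 and 3.97 FPKM in Cdk1Liv-/-, and for T and NK cells 6.5, 4.35 and 8.58 FPKM against 2.50, 1.74 and 1.83 FPKM. Neither list overlapped between the genotypes. The summed neutrophil markers overlapped between the genotypes, at 16.1, 13.6 and 54.2 FPKM against 36.7, 23.1 and 42.0 FPKM. Of these 14 markers 1 rose, 0 fell and 13 did not pass. The 1 that rose was *Prtn3*, a protease of neutrophil granules, which was at 1.52, 1.31 and 2.66 FPKM in WT and 15.3, 12.9 and 21.7 FPKM in Cdk1Liv-/- hepatocytes (log2 fold change 2.89, adjusted p = 0.00353) and so made up much of the Cdk1Liv-/- sums. Monocyte markers summed to 742, 856 and 810.25 FPKM in WT and 725, 663 and 761 FPKM in Cdk1Liv-/- libraries, most of it from fibronectin (*Fn1*), which hepatocytes also make. Of these 10 markers 2 rose and 0 fell. The chemokine receptor *Ccr2*, a defining marker, was at 0.23, 0.16 and 0.26 FPKM in WT and 0.89, 1.04 and 1.5 FPKM in Cdk1Liv-/- hepatocytes and rose by 1.18 (adjusted p = 0.0109), and *Cx3cr1* was at 0.08, 0.03 and 0.10 FPKM in WT and 0.28, 0.37 and 0.34 FPKM in Cdk1Liv-/- hepatocytes and rose by 0.54 (adjusted p = 0.0201). In bulk RNA, fewer cells of a type and less RNA per cell cannot be told apart.

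**Figure D1:**
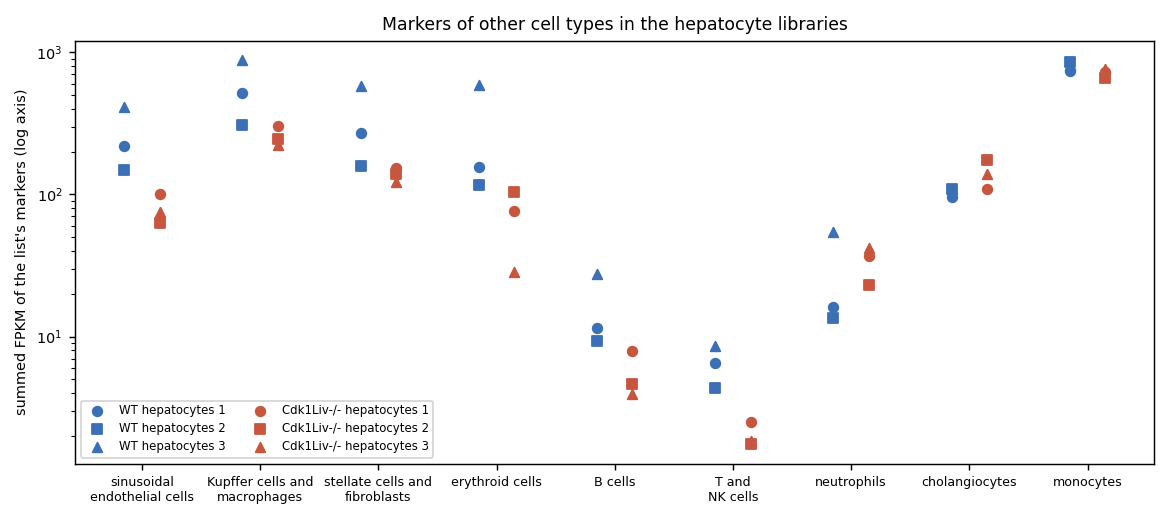
Summed FPKM of the marker genes of 9 other cell types in each hepatocyte library, on a log axis. Blue symbols are the 3 WT and red symbols the 3 Cdk1Liv-/- libraries, and shapes mark the replicate. WT replicate 3 (blue triangle) is the highest library for the lists from endothelial cells to neutrophils, and cholangiocyte markers are the only list here in which Cdk1Liv-/- libraries 2 and 3 lie above all WT libraries.

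*Cdk1* (ENSMUSG00000019942, chromosome 10) was reduced but not absent in the Cdk1Liv-/- hepatocytes. It was at 27.9, 20.4 and 28.2 FPKM in WT and 9.68, 11.8 and 6.87 FPKM in Cdk1Liv-/- hepatocytes, and no Cdk1Liv-/- library reached a WT library. The log2 fold change was -1.40 (standard error 0.22, limma adjusted p = 0.0148). The study describes exon 3 as the part that Cre removes. FPKM over the whole gene therefore also count reads from outside the deleted part and do not measure the deletion itself. By qPCR at this age, the study found *Cdk1* mRNA hardly detectable in Cdk1Liv-/- hepatocytes. Its in situ staining for exon 3 left these hepatocytes unstained and was seen only in interstitial cells. Markers of other cells were present in every library here, and the part of such cells in the remaining *Cdk1* was not tested.

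The B-type cyclins, partners of CDK1, moved the other way. Cyclin B1 (*Ccnb1*), whose binding activates CDK1, was at 13.4, 8.11 and 11.1 FPKM in WT and 50.9, 61.8 and 29.8 FPKM in Cdk1Liv-/- hepatocytes, giving a log2 change of 2.04 (standard error 0.30, adjusted p = 0.0121). Cyclin B2 (*Ccnb2*) was at 17.8, 10.4 and 14.9 FPKM in WT and 61.9, 50.2 and 36.7 FPKM in Cdk1Liv-/- hepatocytes and rose by 1.75. For both cyclins, all Cdk1Liv-/- libraries lay above all WT libraries, with Cdk1Liv-/- replicate 3 the lowest of the 3. Cyclin A2 (*Ccna2*), which serves both S phase and mitosis, overlapped between the genotypes (log2 fold change 0.71, adjusted p = 0.179), as did cyclin E1 (*Ccne1*; 0.27, adjusted p = 0.614). *Cdk2*, the S phase kinase that is closest to CDK1, had a log2 fold change of 0.02 (adjusted p = 0.952). Of the 24 tested cyclins, kinases and regulators of the cycle, 10 rose and 1 fell, and 5 were called higher. The rises numbered 5 without WT replicates 1, 2 or 3 or Cdk1Liv-/- replicate 2. There were 8 calls of higher genes without Cdk1Liv-/- replicate 3.

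Most genes of mitosis rose. Of 74 tested genes of the spindle, kinetochore and chromosome segregation, 63 rose, 0 fell and 48 were called higher, with a median log2 fold change of 1.15. The rises numbered 38 without WT replicate 1. *Psrc1*, which binds spindle microtubules, was at 1.42, 1.02 and 1.77 FPKM in WT and 24.9, 23.9 and 20.6 FPKM in Cdk1Liv-/- hepatocytes, the largest change of the list (log2 fold change 3.65, standard error 0.18, adjusted p = 5.22e-04). *Ckap2*, another spindle protein, was at 5.0, 3.32 and 3.91 FPKM in WT and 24.2, 28.4 and 14 FPKM in Cdk1Liv-/- hepatocytes and rose by 2.27 (adjusted p = 0.00688). Both are also p53 targets and stand on that list too. Aurora kinase A (*Aurka*), needed to build the spindle poles, was at 8.68, 6.67 and 8.74 FPKM in WT and 26.5, 31.7 and 14.4 FPKM in Cdk1Liv-/- hepatocytes and rose by 1.47. *Bub1b*, which encodes the checkpoint kinase BUBR1, was at 4.45, 3.04 and 3.88 FPKM in WT and 10.3, 11.7 and 7.75 FPKM in Cdk1Liv-/- hepatocytes and rose by 1.28. In these 4 genes the genotypes did not overlap, and each passed the test with any single library left out. *Plk1*, the polo kinase of mitotic entry, was at 4.61, 4.23 and 6.36 FPKM in WT and 15.7, 18.0 and 7.49 FPKM in Cdk1Liv-/- hepatocytes (log2 fold change 1.28, adjusted p = 0.0642), and it missed the test without WT replicates 1 or 2 or Cdk1Liv-/- replicates 1 or 2 (adjusted p up to 0.168).

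Of 23 tested genes of cytokinesis, the splitting of the cell after mitosis, 12 rose and 1 fell, and 10 were called higher, with a median of 0.60. Of the members, 7 rose without WT replicate 1. *Prc1*, which bundles the microtubules of the central spindle, was at 9.15, 6.74 and 10.8 FPKM in WT and 36.1, 47.5 and 22.8 FPKM in Cdk1Liv-/- hepatocytes and rose by 1.90 (standard error 0.29, adjusted p = 0.0140). Citron kinase (*Cit*), of the midbody, was at 0.66, 0.27 and 0.66 FPKM in WT and 3.04, 5.26 and 3.32 FPKM in Cdk1Liv-/- hepatocytes and rose by 2.08 (standard error 0.27, adjusted p = 0.00756). Both did so in every Cdk1Liv-/- library and with any single library left out.

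Promoters of the mitosis genes are shown because genes of this phase are known to share a pair of short elements, the cell cycle gene homology region (CHR), bound by the DREAM and B-MYB complexes, and CCAAT boxes, bound by NF-Y. The promoter sequences came from RefSeq (GRCm38.p6) and spanned 250 bases before to 50 after each transcription start. Of 17368 tested gene symbols, 11335 had such a sequence, with 14476 promoters in all. Below are the 120 bases before the start of 4 mitosis genes, 5′ to 3′ on the gene's strand, with capitals marking the letters TTTGAA of the CHR and CCAAT, each on either strand. Read on the other strand, these appear as TTCAAA and ATTGG.
Ckap2, chr8:22185820-22185939, minus strand: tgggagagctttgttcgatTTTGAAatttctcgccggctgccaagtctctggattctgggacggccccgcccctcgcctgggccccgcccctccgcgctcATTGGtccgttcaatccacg
Ube2c, chr2:164769809-164769928, plus strand: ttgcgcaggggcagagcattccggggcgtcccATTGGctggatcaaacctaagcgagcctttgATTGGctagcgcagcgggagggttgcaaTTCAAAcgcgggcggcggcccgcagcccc
Cdc20, chr4:118437344-118437463, minus strand: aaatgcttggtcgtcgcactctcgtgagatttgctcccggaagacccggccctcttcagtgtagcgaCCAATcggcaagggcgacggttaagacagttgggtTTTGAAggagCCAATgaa
Ccnb1, chr13:100786487-100786606, minus strand: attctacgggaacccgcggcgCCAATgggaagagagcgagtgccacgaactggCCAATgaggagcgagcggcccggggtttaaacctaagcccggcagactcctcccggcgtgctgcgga
The start of the CHR letters lay 101 bases before the start in *Ckap2*, 29 in *Ube2c* and 18 in *Cdc20*, and CCAAT lay within 99 bases in all 4. *Ube2c* and *Cdc20* encode an enzyme and an activator of the complex that ends mitosis by marking cyclin B for destruction. In the window of *Ccnb1* shown, CCAAT occurred at 99 and 67 bases before the start and TTTGAA was not found. Over the whole window, TTTGAA was found in 22 of 40 promoters (55.0%) of the mitosis genes called higher and in 12.5% of all tested promoters. It was also in 55.6% of the promoters of all tested mitosis genes, whether or not they were called, and in 11.5% of those of the DNA replication genes. CCAAT was in 72.5% of the promoters of called mitosis genes and in 37.3% of all. It was in 74.6% of the promoters of all tested mitosis genes, in 57.7% of those of the DNA replication genes and in 15 of 25 promoters of the p53 targets called higher. In the 150 bases before the start alone, TTTGAA was in 27.5% and 5.7%. A match of letters is a description and not evidence of binding.

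Of 54 tested genes of DNA replication, 10 rose, 0 fell and 3 were called, with a median of 0.37. The median was 0.24 without Cdk1Liv-/- replicate 2. The number that rose became 4 without WT replicate 1 or Cdk1Liv-/- replicate 1, 5 without WT replicate 3 or Cdk1Liv-/- replicate 2, 6 without WT replicate 2 and 20 without Cdk1Liv-/- replicate 3. The calls of higher genes numbered 5 without Cdk1Liv-/- replicate 3. The sliding clamp of the replication fork, PCNA (*Pcna*), was at 42.1, 46.6 and 39.8 FPKM in WT and 44.7, 53.5 and 35.2 FPKM in Cdk1Liv-/- hepatocytes, with overlapping libraries (log2 fold change 0.03, adjusted p = 0.910). *Mcm2*, a subunit of the replicative helicase, had a log2 fold change of 0.47 (adjusted p = 0.209). *Rrm2*, the subunit of ribonucleotide reductase that limits the supply of deoxynucleotides, was at 15.0, 18.8 and 18.9 FPKM in WT and 64.8, 56.5 and 38.3 FPKM in Cdk1Liv-/- hepatocytes and rose by 1.55 (standard error 0.21, adjusted p = 0.00917). *Cdc45*, which fires origins with the helicase, was at 2.42, 2.85 and 2.59 FPKM in WT and 8.19, 6.57 and 5.64 FPKM in Cdk1Liv-/- hepatocytes and rose by 1.21. In both of the latter the lowest Cdk1Liv-/- library was above the highest WT library.

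Of 53 tested genes of DNA repair and its checkpoints, 18 rose, 0 fell and 9 were called higher, with a median of 0.45. There were 10 rises without WT replicate 3 or Cdk1Liv-/- replicate 1 and 11 without WT replicate 2. The calls of higher genes numbered 5 without Cdk1Liv-/- replicate 2. *Brca1*, which acts in homologous recombination, was at 1.71, 1.37 and 1.02 FPKM in WT and 3.91, 4.87 and 3.88 FPKM in Cdk1Liv-/- hepatocytes and rose by 1.35 (standard error 0.19, adjusted p = 0.0105). Its libraries did not overlap between the genotypes.

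Of the tested p53 targets 25 rose, while the RNA of p53 itself did not pass the test. *Trp53*, which encodes p53 and is known to be controlled mainly as a protein, was at 10.8, 10.5 and 13.5 FPKM in WT and 12.7, 13.6 and 11.2 FPKM in Cdk1Liv-/- hepatocytes and overlapped between the genotypes (log2 fold change 0.10, adjusted p = 0.642). Of 45 tested targets, 0 fell and 21 of those that rose were called higher, with a median of 0.74. Cyclin G1 (*Ccng1*), a classical target, was at 6.51, 6.14 and 6.83 FPKM in WT and 26.9, 33.1 and 24.9 FPKM in Cdk1Liv-/- hepatocytes, with a log2 change of 2.03 (standard error 0.12, adjusted p = 0.00114). *Phlda3*, a repressor of AKT, was at 0.65, 0.46 and 1.66 FPKM in WT and 11.1, 10.7 and 7.70 FPKM in Cdk1Liv-/- hepatocytes and rose by 2.93. *Gdf15*, a secreted stress hormone, was at 4.07, 2.14 and 2.64 FPKM in WT and 36.2, 22.2 and 16.3 FPKM in Cdk1Liv-/- hepatocytes and rose by 2.84. In all 3, every Cdk1Liv-/- library lay above every WT library.

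Among the targets that rose were *Cdkn1a*, *Mdm2*, *Bbc3* and *Bax*. *Cdkn1a*, the CDK inhibitor p21, was at 21, 22.7 and 30.4 FPKM in WT and 59.2, 47.6 and 46.8 FPKM in Cdk1Liv-/- hepatocytes and rose by 1.05 (standard error 0.16, adjusted p = 0.0147). *Mdm2*, whose product degrades p53, was at 10.5, 10.02 and 10.3 FPKM in WT and 24.4, 22.7 and 19.8 FPKM in Cdk1Liv-/- hepatocytes and rose by 1.08 (adjusted p = 0.00319). *Bbc3*, which encodes the death protein PUMA, was at 0.92, 0.71 and 1.44 FPKM in WT and 4.65, 7.38 and 6.57 FPKM in Cdk1Liv-/- hepatocytes and rose by 2.14 (adjusted p = 0.00593). *Bax*, which opens the outer mitochondrial membrane, was at 13.2, 11.9 and 17.1 FPKM in WT and 28, 32.1 and 29.1 FPKM in Cdk1Liv-/- hepatocytes and rose by 1.07. No library of any of these 4 genes lay within the range of the other genotype. Of the wider BCL2 family and the caspases, 5 of 32 tested rose and 3 fell. Among all genes, 12.1% passed as higher and 6.61% as lower. Of the members, 3 rose without WT replicate 2 or Cdk1Liv-/- replicate 3. The number that fell became 0 without WT replicates 1 or 3 and 1 without Cdk1Liv-/- replicates 1, 2 or 3. The death gene *Bcl2l11* (BIM) did not pass (log2 fold change -0.42, adjusted p = 0.288).

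Among called genes with a mean of at least 1 FPKM and no overlap, the 10 largest rises included acute phase proteins, which hepatocytes secrete in inflammation. The acute phase list was written with earlier results known and also holds the surface protein *Ly6d*. Of its 38 tested members, 22 rose, 0 fell and 19 were called higher, with a median of 1.48. Orosomucoid 1 (*Orm1*; ENSMUSG00000039196, chromosome 4), a plasma carrier of basic drugs, was at 0.81, 0.33 and 0.70 FPKM in WT and 394, 291 and 711 FPKM in Cdk1Liv-/- hepatocytes (log2 fold change 8.63, standard error 0.35, adjusted p = 4.09e-04). Serum amyloid A1 (*Saa1*; ENSMUSG00000074115, chromosome 7), which joins lipoproteins, was at 6.69, 3.51 and 3.90 FPKM in WT and 261, 219 and 432 FPKM in Cdk1Liv-/- hepatocytes and rose by 5.86. Lipocalin 2 (*Lcn2*; ENSMUSG00000026822, chromosome 2), which withholds iron from bacteria by binding their siderophores, was at 8.37, 10.1 and 9.28 FPKM in WT and 450.1, 559 and 963 FPKM in Cdk1Liv-/- hepatocytes and rose by 6.0. These 3 genes were highest in Cdk1Liv-/- replicate 3, and their WT values did not exceed the 10.1 FPKM of *Lcn2* in replicate 2. *Orm2* and *Saa2*, close copies of the first and second, rose by 7.35 and 6.33, and reads of such copies may be split uncertainly between them.

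Acute phase genes that were already abundant rose by less on the log2 scale. Haptoglobin (*Hp*), which captures free haemoglobin, was at 2039.7, 2167 and 1857 FPKM in WT and 3979, 4035 and 5489.8 FPKM in Cdk1Liv-/- hepatocytes and rose by 1.14 (standard error 0.18, adjusted p = 0.0139). Hemopexin (*Hpx*), its counterpart for haem, was at 3353, 3369.6 and 3566 FPKM in WT and 5805, 8069.6 and 8278 FPKM in Cdk1Liv-/- hepatocytes and rose by 1.09 (adjusted p = 0.0213). Fibrinogen-like 1 (*Fgl1*) was at 326, 333 and 378 FPKM in WT and 1039, 710.1 and 1056 FPKM in Cdk1Liv-/- hepatocytes and rose by 1.41. The rise was not shared by the whole class. C-reactive protein (*Crp*), a weak reactant in mice, was at 209, 203 and 226 FPKM in WT and 230.4, 138 and 231 FPKM in Cdk1Liv-/- hepatocytes and overlapped (log2 fold change -0.13, adjusted p = 0.726). The fibrinogen chain *Fga* had a log2 fold change of 0.34 (adjusted p = 0.198).

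Hepcidin, the hormone that lowers iron export from cells, is made from *Hamp* (ENSMUSG00000050440, chromosome 7), and *Hamp2* is its close copy. *Hamp* was at 0.89, 1.14 and 0.57 FPKM in WT and 202, 110.3 and 71.9 FPKM in Cdk1Liv-/- hepatocytes, with a log2 change of 6.45 (standard error 0.38, adjusted p = 0.00110). *Hamp2* was at 5.18, 4.95 and 2.88 FPKM in WT and 629, 343 and 189.7 FPKM in Cdk1Liv-/- hepatocytes and rose by 6.19. Cdk1Liv-/- replicate 1 was the highest library for both, unlike the other acute phase genes above, where it was replicate 3. The 120 bases before the start of each gene are shown because inflammation is known to act on hepcidin through STAT3, with capitals for the letters TTCNNNGAA, a STAT3 type motif that reads the same on both strands and was searched on both.
Hamp, chr7:30944030-30944149, minus strand: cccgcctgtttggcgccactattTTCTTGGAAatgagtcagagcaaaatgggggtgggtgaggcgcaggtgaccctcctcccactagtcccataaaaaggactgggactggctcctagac
Hamp2, chr7:30924182-30924301, minus strand: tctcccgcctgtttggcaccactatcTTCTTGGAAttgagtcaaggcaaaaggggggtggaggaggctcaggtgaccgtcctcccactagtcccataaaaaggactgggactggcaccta
The motif lay 97 bases before the start in *Hamp* and 94 in *Hamp2*. Over the whole window it was in 3 of 14 promoters (21.4%) of the called acute phase genes, in 22.9% of those of all tested members of the list, and in 7.1% of all tested promoters.

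Iron handling beyond hepcidin moved in both directions. Of 31 tested genes, 11 rose and 5 fell, with 7 called higher and 3 lower. The falls numbered 1 without WT replicate 1 or Cdk1Liv-/- replicate 3, 2 without WT replicate 3 or Cdk1Liv-/- replicate 1 and 3 without WT replicate 2. There were 4 calls of higher genes without Cdk1Liv-/- replicate 3. The calls of lower genes numbered 1 without WT replicate 1 or Cdk1Liv-/- replicate 3. Ferroportin (*Slc40a1*), the iron exporter on which hepcidin acts as a protein, was at 78.9, 69.4 and 92.4 FPKM in WT and 31.3, 34.0 and 31.5 FPKM in Cdk1Liv-/- hepatocytes, giving a log2 change of -1.29 (standard error 0.12, adjusted p = 0.00291), with all Cdk1Liv-/- libraries below all WT. Macrophages also express it, and it stands on the Kupffer cell list, whose other markers overlapped in sum between the genotypes. Of all 16 markers of that list 3 fell, with a median of -1.06, and 1 to 14 fell with 1 library left out. The part of macrophages in the fall of *Slc40a1* was not tested.

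Other small secreted or surface proteins were among the largest changes, of which *Ly6d* and *Slpi* stand on the acute phase list and *Wfdc21* does not. *Ly6d*, a GPI-anchored surface protein, was at 0.87, 0.54 and 1.42 FPKM in WT and 193, 141 and 208 FPKM in Cdk1Liv-/- hepatocytes and rose by 7.0 (standard error 0.26). The antiprotease *Slpi* was at 0.29, 0.06 and 1.12 FPKM in WT and 57.6, 168 and 135 FPKM in Cdk1Liv-/- hepatocytes and rose by 6.94 (standard error 0.53). *Wfdc21*, of the same WAP-domain family, was at 4.23, 3.59 and 3.46 FPKM in WT and 313, 113 and 249 FPKM in Cdk1Liv-/- hepatocytes and rose by 5.61 (standard error 0.37). Cdk1Liv-/- libraries differed among themselves more in *Slpi* and *Wfdc21* than in *Ly6d*, but none approached a WT value. Clusterin (*Clu*), an extracellular chaperone, was at 354, 390.4 and 414 FPKM in WT and 1612, 2108 and 2066 FPKM in Cdk1Liv-/- hepatocytes and rose by 2.31 (adjusted p = 0.00110).

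**Figure D2:**
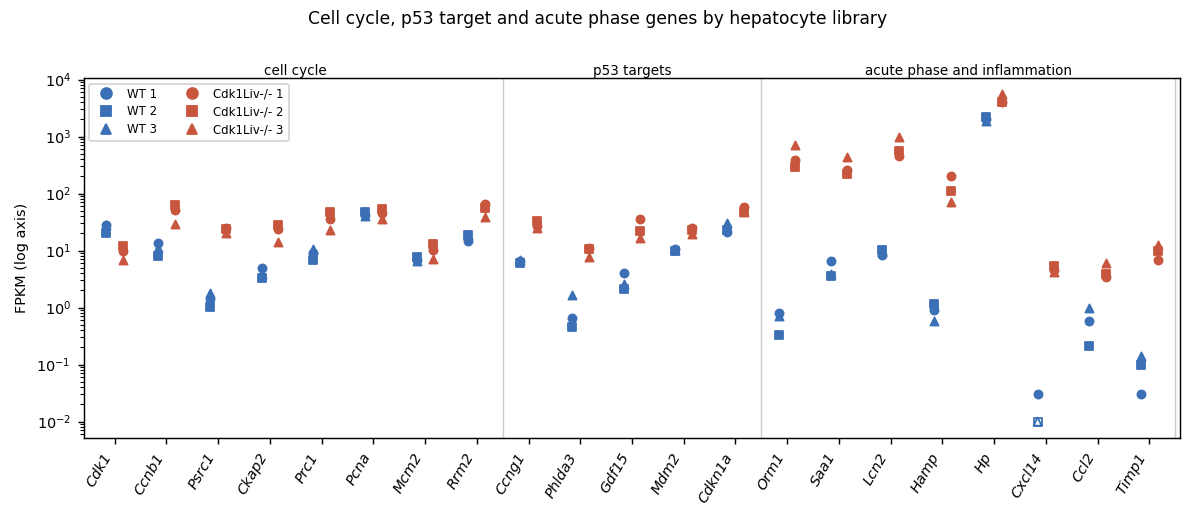
FPKM of cell cycle, p53 target and acute phase or inflammatory genes in each hepatocyte library, on a log axis. Blue symbols are WT and red symbols Cdk1Liv-/- libraries, shapes mark the replicate, and open symbols at the lower edge are values listed at 0. *Cdk1* is the gene whose red symbols lie below the blue ones, *Pcna* overlaps, and *Orm1* and *Cxcl14* have the widest gaps.

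Complement, the plasma cascade that marks and lyses microbes, changed in part. Of 27 tested genes, 7 rose and 1 fell, or 4 fell with median-ratio size factors. Of the members, 6 fell without WT replicate 2. *C9*, the pore-forming component, was at 58.2, 56.4 and 45.2 FPKM in WT and 192, 183 and 222 FPKM in Cdk1Liv-/- hepatocytes and rose by 1.89 (adjusted p = 0.00134). The regulators *C4bp* and *Serping1*, which hold the cascade in check, were at 187, 158 and 165 FPKM in WT and 344, 428 and 409 FPKM in Cdk1Liv-/- hepatocytes and at 162, 165 and 169.9 FPKM in WT and 372, 259 and 398 FPKM in Cdk1Liv-/- hepatocytes. They rose by 1.21 and 1.02, with no overlap between the genotypes. *C3*, the hub of the cascade, was at 2826, 2813 and 2792 FPKM in WT and 3477, 5303 and 4849 FPKM in Cdk1Liv-/- hepatocytes (log2 fold change 0.67, adjusted p = 0.0799), and missed the test without WT replicates 1, 2 or 3 or Cdk1Liv-/- replicates 2 or 3 (adjusted p up to 0.205).

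Of 30 tested genes of coagulation and fibrinolysis, 11 fell and 4 rose, with a median of -0.30. The median was -0.19 without Cdk1Liv-/- replicate 2. The number that rose became 1 without WT replicate 2 and 2 without WT replicates 1 or 3 or Cdk1Liv-/- replicate 3. The falls numbered 3 without Cdk1Liv-/- replicate 3, 4 without WT replicate 1, 6 without WT replicates 2 or 3 or Cdk1Liv-/- replicate 1 and 7 without Cdk1Liv-/- replicate 2. Prothrombin (*F2*) was at 1084, 1133 and 1129 FPKM in WT and 856, 885 and 882 FPKM in Cdk1Liv-/- hepatocytes (log2 fold change -0.35, adjusted p = 0.0510), and antithrombin (*Serpinc1*), which inhibits it, was at 2526, 2801 and 2629 FPKM in WT and 1895, 2024 and 1775 FPKM in Cdk1Liv-/- hepatocytes (-0.48, adjusted p = 0.0548). Both lay below every WT library in every Cdk1Liv-/- library, and both missed the test without WT replicates 1, 2 or 3 or Cdk1Liv-/- replicates 1 or 3. The largest falls, the 2 called lower, were of *Tfpi*, the inhibitor of the tissue factor pathway (log2 fold change -1.42, adjusted p = 0.0629), and of *Plau*, the plasminogen activator urokinase (log2 fold change -1.30, adjusted p = 0.0991). Genes of this list called lower numbered 0 without WT replicates 1 or 3 or Cdk1Liv-/- replicates 2 or 3. *Tfpi* missed the test without WT replicates 1 or 3 or Cdk1Liv-/- replicates 2 or 3 and *Plau* without WT replicate 1 or Cdk1Liv-/- replicates 1, 2 or 3. In whole liver the log2 fold changes of *Tfpi* and *Plau* were 0.36 and 0.41. Markers of sinusoidal endothelial cells fell in the same hepatocyte libraries (13 of 14, median -1.61), and their part in these falls was not tested. The tissue plasminogen activator *Plat* was called higher (log2 fold change 1.28, adjusted p = 0.0400) and missed the test without WT replicates 1 or 2. Protein S (*Pros1*), an anticoagulant cofactor, was at 25.4, 20.5 and 22.7 FPKM in WT and 40.6, 38.6 and 42.3 FPKM in Cdk1Liv-/- hepatocytes and rose by 0.82 (adjusted p = 0.00641).

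Chemokines and cytokines moved in both directions. Of 50 tested, 15 rose and 7 fell. *Ccl2*, which draws monocytes, was at 0.59, 0.21 and 1.00 FPKM in WT and 3.46, 3.91 and 6.11 FPKM in Cdk1Liv-/- hepatocytes and rose by 2.21 (standard error 0.33, adjusted p = 0.0126). *Cxcl1*, which draws neutrophils, was at 9.55, 6.28 and 2.14 FPKM in WT and 52.3, 34.8 and 29.9 FPKM in Cdk1Liv-/- hepatocytes and rose by 2.77. *Cxcl10*, which draws T cells, was at 3.89, 2.99 and 3.57 FPKM in WT and 13, 17.6 and 15.1 FPKM in Cdk1Liv-/- hepatocytes and rose by 1.98. *Cxcl14* was at 0.03, 0 and 0 FPKM in WT and 4.59, 5.28 and 4.17 FPKM in Cdk1Liv-/- hepatocytes and rose by 3.34. For these 4 chemokines every Cdk1Liv-/- library was above every WT library, although no value exceeded 52.3 FPKM. The monocyte markers *Ccr2* and *Cx3cr1* were higher in the same libraries, and their part in these rises was not tested. Osteopontin (*Spp1*), a secreted phosphoprotein made by bile duct and inflammatory cells, was at 18.3, 13.5 and 28.7 FPKM in WT and 63.0, 119.9 and 95.6 FPKM in Cdk1Liv-/- hepatocytes and rose by 2.20. Interleukin 1 beta (*Il1b*), made mainly by myeloid cells, went the other way, at 4.43, 3.83 and 4.78 FPKM in WT and 0.69, 0.69 and 0.72 FPKM in Cdk1Liv-/- hepatocytes (log2 fold change -2.01, standard error 0.14, adjusted p = 0.00159). *Il1a* was at 6.77, 4.98 and 7.0 FPKM in WT and 2.19, 1.11 and 1.07 FPKM in Cdk1Liv-/- hepatocytes and fell, with a log2 change of -1.82. Both interleukins had non-overlapping libraries. Of 16 markers of Kupffer cells and macrophages 3 fell in the same libraries, and their part in the falls of the interleukins was not tested.

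The genes of IL-6 and STAT3 signalling comprised receptors, kinases, transcription factors and some of their products. Of 24 tested, 8 rose, 1 fell and 5 were called higher. The largest changes were of *Hamp*, given above, and of the secreted glycoprotein *Lrg1* (log2 fold change 2.24, adjusted p = 0.0109), both also on the acute phase list. There were 4 rises without WT replicate 2 or Cdk1Liv-/- replicate 3 and 5 without WT replicates 1 or 3. Between 2 and 5 members were called higher with 1 library left out. *Stat3*, the transcription factor of the pathway, was at 28.5, 23.3 and 25.4 FPKM in WT and 34.9, 40.4 and 41.2 FPKM in Cdk1Liv-/- hepatocytes and rose by 0.59 (standard error 0.11, adjusted p = 0.0241). *Socs3*, its feedback inhibitor, was at 2.01, 1.26 and 1.53 FPKM in WT and 2.93, 3.19 and 6.82 FPKM in Cdk1Liv-/- hepatocytes (log2 fold change 1.12, adjusted p = 0.0811), and missed the test without WT replicates 1, 2 or 3 or Cdk1Liv-/- replicates 2 or 3 (adjusted p up to 0.181). The receptor subunits *Il6ra* and *Il6st* overlapped between the genotypes, with log2 fold changes of -0.22 and 0.21 (adjusted p = 0.631 and 0.712). Of 37 tested genes of NF-kappaB and TNF signalling, 13 rose, 0 fell and 3 were called higher. The rises numbered 6 without WT replicate 2 or Cdk1Liv-/- replicate 3 and 8 without WT replicate 1. Of the members, 5 were called higher without Cdk1Liv-/- replicate 1. Neither *Tnf* itself, at 0.05 to 0.14 FPKM, nor *Nfkbia*, the feedback inhibitor of NF-kappaB, passed (adjusted p = 0.169 and 0.212). Interferon-inducible genes stayed near the median of all genes. Of 43 tested, 5 rose, 0 fell and 0 were called, with a median of 0.05, and only 1 rose when median-ratio size factors were applied, where that median was -0.02. The median was -0.10 without WT replicate 2 and 0.13 without WT replicate 3, the lowest and highest with 1 library left out. The number that rose became 1 without WT replicate 1, 2 without WT replicate 2 or Cdk1Liv-/- replicate 3 and 3 without WT replicate 3 or Cdk1Liv-/- replicate 1. The falls numbered 2 without WT replicate 2. *Isg15* and *Ifit1* overlapped between the genotypes (log2 fold changes -0.03 and 0.07, adjusted p = 0.943 and 0.840).

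Among all genes, 12.1% passed as higher and 6.61% as lower. Of 54 tested genes of the extracellular matrix and fibrosis, 9 rose and 3 fell, with a median of -0.38. The median was -0.71 without WT replicate 2 and -0.07 without WT replicate 3. There were 0 falls without WT replicate 1 or Cdk1Liv-/- replicate 3, 1 without Cdk1Liv-/- replicate 1 and 17 without WT replicate 2. *Timp1*, an inhibitor of matrix proteases, was at 0.03, 0.10 and 0.14 FPKM in WT and 6.83, 9.88 and 12.8 FPKM in Cdk1Liv-/- hepatocytes, with a log2 change of 4.09 (standard error 0.24, adjusted p = 0.00110). Type I collagen (*Col1a1*), a product of stellate cells, was at 1.98, 0.84 and 9.40 FPKM in WT and 2.20, 3.27 and 2.35 FPKM in Cdk1Liv-/- hepatocytes, with the highest value in WT replicate 3 and overlapping genotypes (log2 fold change -0.06, adjusted p = 0.966). *Mmp2*, a protease of the same cells, was at 5.83, 2.43 and 9.77 FPKM in WT and 0.92, 1.03 and 0.68 FPKM in Cdk1Liv-/- hepatocytes, giving a log2 change of -2.07 (adjusted p = 0.0379). It missed the test without WT replicate 1 or Cdk1Liv-/- replicate 3 (adjusted p up to 0.120). Of 14 markers of stellate cells and fibroblasts 2 fell and 0 rose, and 0 to 8 fell with 1 library left out. Their median was -0.88, or -0.37 without WT replicate 3, and their part in the matrix values was not tested. In whole liver the median of the matrix genes was 0.77.

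Markers of bile ducts and liver progenitors rose more often than they fell. Of 32 tested, 17 rose, 1 fell and 13 were called higher, with a median of 0.81. *Sox9*, the transcription factor of ductal fate, was at 0.74, 0.70 and 0.64 FPKM in WT and 2.11, 2.63 and 3.18 FPKM in Cdk1Liv-/- hepatocytes and rose by 1.38 (standard error 0.17, adjusted p = 0.00694). The claudin *Cldn7*, a tight junction protein of epithelia, was at 0.20, 0.43 and 0.26 FPKM in WT and 2.28, 6.34 and 2.47 FPKM in Cdk1Liv-/- hepatocytes and rose by 2.28. Keratin 20 (*Krt20*), an epithelial filament protein, was at 3.04, 3.34 and 2.22 FPKM in WT and 17.7, 24.3 and 10.2 FPKM in Cdk1Liv-/- hepatocytes and rose by 2.34. *Epcam*, an adhesion molecule of ducts and progenitors, was at 0.31, 0.25 and 0.37 FPKM in WT and 0.82, 0.86 and 0.82 FPKM in Cdk1Liv-/- hepatocytes and rose by 0.72 (adjusted p = 0.0145). In each of these 4 genes all Cdk1Liv-/- libraries lay above all WT libraries. The defining duct keratins stayed low. *Krt19* was at 0.24, 0.18 and 0.37 FPKM in WT and 0.76, 0.51 and 0.38 FPKM in Cdk1Liv-/- hepatocytes (log2 fold change 0.45, adjusted p = 0.151), and *Krt7* did not exceed 0.13 FPKM in any library (log2 fold change 0.25, adjusted p = 0.0723), passing only with all 6 libraries. The summed cholangiocyte markers were at 95.4 to 109.9 FPKM in WT and 109.9 to 174 FPKM in Cdk1Liv-/- libraries.

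Of 50 tested YAP targets and cytoskeletal genes, 14 rose, 0 fell and 8 were called higher. The rises numbered 8 without WT replicate 1 or Cdk1Liv-/- replicate 1 and 9 without WT replicate 2. Of the members, 4 fell without WT replicate 2. The number that were called higher became 5 without WT replicate 1. *S100a10*, an annexin partner, was at 15.2, 10 and 19.7 FPKM in WT and 85.4, 92.3 and 91.0 FPKM in Cdk1Liv-/- hepatocytes and rose by 2.59 (standard error 0.23, adjusted p = 0.00285). *S100a11*, of the same family, was at 9.10, 6.61 and 24.4 FPKM in WT and 56.4, 76.5 and 80.5 FPKM in Cdk1Liv-/- hepatocytes, with WT replicate 3 nearest to the Cdk1Liv-/- libraries, and rose by 2.57. The tubulin *Tuba8*, which is little used in liver, was at 0.60, 0.59 and 0.62 FPKM in WT and 6.58, 7.87 and 3.50 FPKM in Cdk1Liv-/- hepatocytes and rose by 2.49. Among the YAP targets, *Cyr61* was at 3.73, 2.36 and 2.98 FPKM in WT and 10.2, 19.6 and 8.83 FPKM in Cdk1Liv-/- hepatocytes and rose by 1.86, while *Ctgf* overlapped between the genotypes (log2 fold change -0.50, adjusted p = 0.464). Of 39 tested immediate early and AP-1 genes, which respond within minutes to growth factors or to handling of cells, 12 rose and 2 fell. *Fos* was at 8.74, 2.98 and 4.06 FPKM in WT and 27.4, 22.1 and 15.2 FPKM in Cdk1Liv-/- hepatocytes and rose by 2.03. *Atf3*, a stress transcription factor, was at 0.61, 0.33 and 1.15 FPKM in WT and 4.45, 3.48 and 4.21 FPKM in Cdk1Liv-/- hepatocytes and rose by 1.98. Within WT, *Fos* and *Jun* were highest in replicate 1, and *Jun* did not pass (log2 fold change 1.22, adjusted p = 0.137). Whether the handling of the cells had a part in these values was not tested. *Klf2*, a flow-responsive factor of endothelium, was at 6.97, 6.31 and 8.94 FPKM in WT and 3.51, 1.45 and 2.14 FPKM in Cdk1Liv-/- hepatocytes (log2 fold change -1.51, adjusted p = 0.0257) and fell beside the endothelial markers.

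Of 43 tested transcription factors of hepatocytes, 6 rose, 0 fell and 1 was called higher, beside 12.1% of all genes that passed as higher and 4.20% that were called higher. The rises numbered 2 without WT replicate 1 and 3 without WT replicates 2 or 3 or Cdk1Liv-/- replicate 3. *Hnf4a*, the central one, was at 111, 101 and 102 FPKM in WT and 141, 120.3 and 170.3 FPKM in Cdk1Liv-/- hepatocytes (log2 fold change 0.45, adjusted p = 0.0875), and missed the test without WT replicates 1, 2 or 3 or Cdk1Liv-/- replicates 1 or 3 (adjusted p up to 0.193). *Cebpa* and *Foxa2* overlapped between the genotypes, with log2 fold changes of 0.03 and 0.15 (adjusted p = 0.893 and 0.777).

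Among secreted plasma proteins of hepatocytes, a list that shares only *Serpina1a* with the acute phase list, 8 of 46 tested fell and 5 rose, with a median of -0.26. There were 3 rises without WT replicates 1 or 2 or Cdk1Liv-/- replicate 1. The falls numbered 4 without WT replicates 1 or 2 and 5 without Cdk1Liv-/- replicate 3. Apolipoprotein A1 (*Apoa1*), the main protein of high-density lipoprotein, was at 8752, 11332 and 10829 FPKM in WT and 5026, 3813 and 5429 FPKM in Cdk1Liv-/- hepatocytes and fell (log2 fold change -1.12, standard error 0.22, adjusted p = 0.0293). *Serpina1e*, a copy of alpha-1-antitrypsin whose reads may be shared with its paralogs, was at 240.4, 275 and 345 FPKM in WT and 86.5, 139.7 and 119 FPKM in Cdk1Liv-/- hepatocytes and fell (log2 fold change -1.32). Transthyretin (*Ttr*), which carries thyroid hormone, was at 5404, 6855 and 5482 FPKM in WT and 3235, 3454 and 2320.1 FPKM in Cdk1Liv-/- hepatocytes (log2 fold change -0.99, adjusted p = 0.0374), and missed the test without WT replicates 1 or 2. The inhibitor heavy chain *Itih2* and apolipoprotein H (*Apoh*) fell as well (log2 fold changes -0.76 and -0.63). Apolipoprotein C3 (*Apoc3*), which slows the clearance of triglycerides, was at 693, 710.0 and 688 FPKM in WT and 1692, 1114 and 1403 FPKM in Cdk1Liv-/- hepatocytes and rose by 0.99 (adjusted p = 0.0166). The major urinary protein gene *Mup20* was at 0.52, 0.24 and 0.45 FPKM in WT and 18.9, 13.3 and 58.4 FPKM in Cdk1Liv-/- hepatocytes and rose by 4.81. Its relative *Mup3* was at 1.95, 1.67 and 1.64 FPKM in WT and 61.4, 15.1 and 44.1 FPKM in Cdk1Liv-/- hepatocytes and rose by 3.96, and the members of this family are nearly alike in sequence, so their reads may be split uncertainly.

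Genes of fetal and neonatal liver did not move together. Of 35 tested, 12 rose and 7 fell, with 10 called higher and 4 lower. Of the members, 3 fell without Cdk1Liv-/- replicate 3 and 4 without WT replicate 1 or Cdk1Liv-/- replicates 1 or 2. The number that were called lower became 1 without WT replicate 1 or Cdk1Liv-/- replicates 2 or 3 and 2 without WT replicate 3 or Cdk1Liv-/- replicate 1. Alpha-fetoprotein (*Afp*), the fetal counterpart of albumin, was at 51.6, 50.5 and 116 FPKM in WT and 100.2, 254 and 96.5 FPKM in Cdk1Liv-/- hepatocytes, with overlapping libraries (log2 fold change 1.0, adjusted p = 0.231). The imprinted genes *H19* and *Igf2*, still high at this age, had log2 fold changes of -0.41 and -0.36 and did not pass (adjusted p = 0.385 and 0.499). *Cdkn1c*, an imprinted CDK inhibitor, was at 12.1, 15.6 and 12.6 FPKM in WT and 4.82, 6.02 and 2.74 FPKM in Cdk1Liv-/- hepatocytes and fell (log2 fold change -1.52, standard error 0.27, adjusted p = 0.0207), so that the inhibitors *Cdkn1a* and *Cdkn1c* moved in opposite directions. *Cyp3a41a*, a P450 of young and female liver, was at 6.49, 5.14 and 4.70 FPKM in WT and 62.7, 78.8 and 64.2 FPKM in Cdk1Liv-/- hepatocytes and rose by 3.54. Trefoil factor 3 (*Tff3*), a mucosal peptide, was at 1.63, 1.36 and 6.70 FPKM in WT and 20.5, 17.5 and 27.8 FPKM in Cdk1Liv-/- hepatocytes and rose by 2.85.

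Zonation, the division of labour between hepatocytes near the central vein and near the portal tract, was not shifted as a block. Of 40 tested pericentral genes, 7 rose and 7 fell. The falls numbered 2 without WT replicates 1 or 2 or Cdk1Liv-/- replicate 3 and 3 without Cdk1Liv-/- replicates 1 or 2. Of 40 tested periportal genes, 7 rose and 7 fell. There were 3 falls without WT replicate 1 or Cdk1Liv-/- replicate 3 and 4 without WT replicate 3. Among pericentral genes, *Aldh1a1*, which makes retinoic acid, was at 21.6, 20.1 and 12.4 FPKM in WT and 177, 163 and 178 FPKM in Cdk1Liv-/- hepatocytes and rose by 3.26 (standard error 0.21, adjusted p = 0.00127). *Oat*, which converts ornithine, was at 50.8, 34.8 and 36.1 FPKM in WT and 436, 246 and 209.8 FPKM in Cdk1Liv-/- hepatocytes and rose by 2.80. Glutamine synthetase (*Glul*), the marker of the innermost pericentral layer, was at 189.8, 134 and 98.0 FPKM in WT and 62.0, 66.5 and 75.4 FPKM in Cdk1Liv-/- hepatocytes (log2 fold change -1.0, adjusted p = 0.0488), and missed the test without WT replicate 2 or Cdk1Liv-/- replicates 1, 2 or 3 (adjusted p up to 0.130). *Csad*, of taurine synthesis, was at 48.0, 57.1 and 39.2 FPKM in WT and 16.6, 16.3 and 19.7 FPKM in Cdk1Liv-/- hepatocytes and fell (log2 fold change -1.42, adjusted p = 0.00500). Among periportal genes, the polymeric immunoglobulin receptor (*Pigr*), which carries antibodies into bile, was at 6.09, 4.95 and 6.12 FPKM in WT and 113, 74.6 and 166 FPKM in Cdk1Liv-/- hepatocytes and rose by 4.18 (standard error 0.28, adjusted p = 0.00136). *Agxt*, which detoxifies glyoxylate, was at 308, 312 and 355 FPKM in WT and 171, 154 and 122 FPKM in Cdk1Liv-/- hepatocytes and fell (log2 fold change -1.13). In each of these genes except *Glul* the result held with any single library left out.

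Cytochrome P450 enzymes changed in both directions. Of 52 tested, 10 rose and 10 fell, beside 12.1% of all genes that passed as higher and 6.61% as lower. The rises numbered 5 without WT replicate 1 and 6 without Cdk1Liv-/- replicates 1 or 3. Of the members, 6 fell without WT replicate 1 or Cdk1Liv-/- replicate 3. *Cyp2c69* was at 69.3, 62.0 and 75.4 FPKM in WT and 7.39, 17.0 and 11.6 FPKM in Cdk1Liv-/- hepatocytes and fell most among the P450 genes (log2 fold change -2.55, standard error 0.28, adjusted p = 0.00521). *Cyp2a22* was at 152, 142 and 135 FPKM in WT and 52.9, 51.4 and 55.2 FPKM in Cdk1Liv-/- hepatocytes and fell (log2 fold change -1.42, adjusted p = 6.20e-04). *Cyp2d9*, an enzyme of male liver, was at 36.5, 34.0 and 31.4 FPKM in WT and 127, 186 and 157 FPKM in Cdk1Liv-/- hepatocytes and rose by 2.17 (adjusted p = 0.00136). The genotypes did not overlap in these 3 genes. Members of the P450 families 2 and 3 are alike in sequence, and reads between close copies are uncertain.

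Conjugating enzymes rose more often than they fell. Of 48 tested phase II genes, 21 rose and 4 fell, with 14 called higher and 2 lower. The number that fell became 1 without WT replicate 1 and 2 without WT replicate 2 or Cdk1Liv-/- replicate 3. Nicotinamide N-methyltransferase (*Nnmt*) was at 0.93, 0.59 and 2.98 FPKM in WT and 86.2, 42.8 and 72.9 FPKM in Cdk1Liv-/- hepatocytes and rose by 5.21 (standard error 0.48, adjusted p = 0.00318). The glucuronosyltransferase *Ugt1a9* was at 5.30, 5.89 and 8.54 FPKM in WT and 70.6, 40.0 and 42.0 FPKM in Cdk1Liv-/- hepatocytes and rose by 2.84. The glutathione transferases *Gstm3* and *Gsta1* were at 6.60, 5.59 and 3.77 FPKM in WT and 32.9, 51.8 and 37.3 FPKM in Cdk1Liv-/- hepatocytes and at 0.04, 0.19 and 0 FPKM in WT and 4.68, 3.11 and 7.12 FPKM in Cdk1Liv-/- hepatocytes, and rose by 2.83 and 3.19. The sulfotransferase *Sult2a2*, which acts on steroids and bile acids, was at 694, 689 and 493 FPKM in WT and 182, 128 and 171 FPKM in Cdk1Liv-/- hepatocytes and fell (log2 fold change -1.96, standard error 0.19, adjusted p = 0.00361). *Sult1c2* was at 9.7, 11.2 and 15.3 FPKM in WT and 3.31, 2.39 and 1.96 FPKM in Cdk1Liv-/- hepatocytes and fell (log2 fold change -2.04). In both, every Cdk1Liv-/- library was below every WT library.

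Bile acid genes changed in both directions. Of 35 tested, 7 rose and 4 fell, beside 12.1% of all genes that passed as higher and 6.61% as lower. The rises numbered 3 without WT replicates 2 or 3 or Cdk1Liv-/- replicate 3 and 4 without WT replicate 1 or Cdk1Liv-/- replicate 1. There were 2 falls without WT replicate 1. *Baat*, which joins bile acids to taurine, was at 26.1, 24.4 and 25.1 FPKM in WT and 81.5, 57.8 and 87.1 FPKM in Cdk1Liv-/- hepatocytes and rose by 1.54 (adjusted p = 0.00428). *Abcb4*, the phospholipid exporter of bile, was at 42.9, 40.1 and 36.0 FPKM in WT and 90.6, 86.5 and 117 FPKM in Cdk1Liv-/- hepatocytes and rose by 1.28 (adjusted p = 0.00447). The uptake transporter *Slco1a4* was at 75.5, 65.3 and 43.3 FPKM in WT and 24.7, 18.1 and 20.8 FPKM in Cdk1Liv-/- hepatocytes and fell (log2 fold change -1.49, adjusted p = 0.0127), while another, *Slco2b1*, rose by 1.48. *Cyp7a1*, the rate-limiting enzyme of synthesis, was at 22.0, 17.2 and 13.9 FPKM in WT and 28.1, 52.5 and 41.4 FPKM in Cdk1Liv-/- hepatocytes (log2 fold change 1.16, adjusted p = 0.0435), and missed the test without WT replicates 2 or 3 or Cdk1Liv-/- replicate 3 (adjusted p up to 0.123).

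Of 49 tested genes of fatty acid oxidation and ketogenesis, 19 fell and 3 rose, with a median of -0.34 and 1 called lower. The median was -0.19 without Cdk1Liv-/- replicate 2. The rises numbered 1 without WT replicates 1 or 2 or Cdk1Liv-/- replicates 1 or 3 and 5 without Cdk1Liv-/- replicate 2. Of the members, 11 fell without WT replicate 1. The gene called lower was *Acat1*, mitochondrial thiolase of ketone metabolism, at 459, 459 and 408 FPKM in WT and 178, 161 and 155 FPKM in Cdk1Liv-/- hepatocytes (log2 fold change -1.42, standard error 0.09, adjusted p = 0.00128). *Cpt1a*, the gate of fatty acids into mitochondria, and *Acadm*, of the first oxidation step, overlapped between the genotypes (log2 fold changes 0.01 and 0.08, adjusted p = 0.966 and 0.684).

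Of 37 tested genes of lipid synthesis and storage, 14 rose and 3 fell, and 8 were called higher. The number that rose became 5 without WT replicate 1, 8 without WT replicate 3 or Cdk1Liv-/- replicate 3 and 9 without Cdk1Liv-/- replicate 1. The falls numbered 6 without Cdk1Liv-/- replicate 2. There were 4 calls of higher genes without WT replicate 1. *Scd1*, which makes monounsaturated fatty acids, was at 5.33, 4.32 and 8.09 FPKM in WT and 35.1, 119.6 and 64.4 FPKM in Cdk1Liv-/- hepatocytes and rose by 3.39 (standard error 0.45, adjusted p = 0.00905). *Elovl6*, which lengthens palmitate, was at 0.57, 0.51 and 0.49 FPKM in WT and 6.91, 12.0 and 4.88 FPKM in Cdk1Liv-/- hepatocytes and rose by 2.96 (standard error 0.31, adjusted p = 0.00447). *Thrsp*, a promoter of lipogenesis, was at 4.18, 3.55 and 1.18 FPKM in WT and 18.3, 20.3 and 19.9 FPKM in Cdk1Liv-/- hepatocytes and rose by 2.66 (standard error 0.38, adjusted p = 0.0109). Cdk1Liv-/- replicate 2 was the highest library for *Scd1* and *Elovl6*. *Fasn*, the fatty acid synthase, was at 13.8, 24.2 and 15.7 FPKM in WT and 28.6, 47.7 and 27.4 FPKM in Cdk1Liv-/- hepatocytes (log2 fold change 0.93, adjusted p = 0.0943), and missed the test without WT replicates 1 or 3 or Cdk1Liv-/- replicates 1, 2 or 3 (adjusted p up to 0.224). *Srebf1*, the transcription factor of this program, was at 157, 162 and 114 FPKM in WT and 61.0, 135 and 46.4 FPKM in Cdk1Liv-/- hepatocytes and did not pass (log2 fold change -0.97, adjusted p = 0.172). Of 31 tested genes of cholesterol synthesis and uptake, 2 rose and 1 fell, with a median of 0.23. The median was 0.37 without Cdk1Liv-/- replicate 1, 0.01 without Cdk1Liv-/- replicate 2 and 0.39 without Cdk1Liv-/- replicate 3. The rises numbered 4 without Cdk1Liv-/- replicate 1. Of the members, 4 fell without Cdk1Liv-/- replicate 2. *Sqle*, a limiting enzyme of sterol synthesis, was at 1.19, 1.31 and 0.89 FPKM in WT and 2.21, 24.1 and 6.03 FPKM in Cdk1Liv-/- hepatocytes and varied more among the Cdk1Liv-/- libraries than it differed between genotypes (log2 fold change 2.22, adjusted p = 0.117), again with replicate 2 the highest.

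Of 77 tested nuclear genes of oxidative phosphorylation, 18 fell, 0 rose and 0 were called, with a median of -0.19, or -0.26 with median-ratio size factors. The median was -0.29 without Cdk1Liv-/- replicate 1. The number that fell became 1 without WT replicate 2 or Cdk1Liv-/- replicate 3, 2 without Cdk1Liv-/- replicate 2, 3 without WT replicate 1 and 5 without WT replicate 3. *Uqcrb*, a subunit of complex III, was at 323, 331 and 283 FPKM in WT and 229, 214 and 203 FPKM in Cdk1Liv-/- hepatocytes and fell (log2 fold change -0.54, standard error 0.09, adjusted p = 0.0196). Of the 13 genes encoded by mitochondrial DNA, 0 passed in either direction. Together they made up 11.7% to 12.5% of all FPKM in WT and 13.5% to 15.4% in Cdk1Liv-/- libraries.

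Amino acid breakdown changed enzyme by enzyme. Of 59 tested genes, 11 rose and 12 fell. The rises numbered 6 without WT replicate 3 and 7 without WT replicates 1 or 2. *Prodh*, the first enzyme of proline breakdown, was at 10.5, 7.54 and 3.93 FPKM in WT and 48.0, 32.6 and 55.7 FPKM in Cdk1Liv-/- hepatocytes and rose by 2.62 (standard error 0.36, adjusted p = 0.0101). *Acmsd*, which steers tryptophan away from NAD synthesis, was at 1.78, 2.44 and 3.20 FPKM in WT and 10.9, 12.7 and 9.91 FPKM in Cdk1Liv-/- hepatocytes and rose by 1.99 (standard error 0.20, adjusted p = 0.00418). Cystathionine gamma-lyase (*Cth*), which makes cysteine, was at 131, 143 and 172 FPKM in WT and 64.2, 53.9 and 52.5 FPKM in Cdk1Liv-/- hepatocytes and fell (log2 fold change -1.37, standard error 0.13, adjusted p = 0.00346). In the urea cycle, *Cps1*, its entry enzyme, was at 764, 625 and 618 FPKM in WT and 851, 1166 and 1186 FPKM in Cdk1Liv-/- hepatocytes (log2 fold change 0.66, adjusted p = 0.0570), and missed the test without WT replicates 2 or 3 or Cdk1Liv-/- replicates 2 or 3 (adjusted p up to 0.154). Of 46 tested genes of glucose production and use, 6 rose and 1 fell. Among all genes, 12.1% passed as higher and 6.61% as lower. Of the members, 1 rose without WT replicate 1, 2 without WT replicate 2 and 3 without Cdk1Liv-/- replicate 1. The gluconeogenic genes *G6pc* and *Pck1* overlapped between the genotypes (log2 fold changes -0.30 and -0.17, adjusted p = 0.240 and 0.642).

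**Figure D3:**
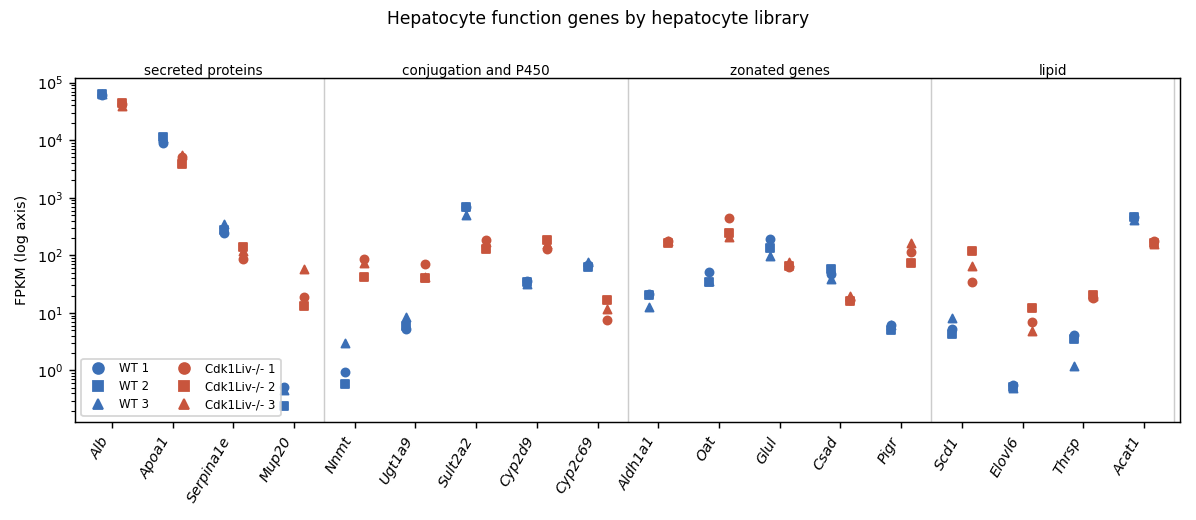
FPKM of genes of hepatocyte function in each hepatocyte library, on a log axis. Blue symbols are WT and red symbols Cdk1Liv-/- libraries, and shapes mark the replicate. *Nnmt*, *Mup20* and *Pigr* have the widest gaps upward, *Cyp2c69* and *Sult2a2* the widest downward, and *Alb* lies within a narrow range.

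Some genes of the stress pathways rose. Of 40 tested genes of endoplasmic reticulum stress and the integrated stress response, 15 rose and 1 fell, but only 9 rose with median-ratio size factors. The rises numbered 3 without WT replicate 1, 5 without WT replicate 2, 8 without Cdk1Liv-/- replicate 3 and 9 without Cdk1Liv-/- replicates 1 or 2. *Ddit3*, which encodes the stress factor CHOP, was at 5.71, 5.95 and 7.47 FPKM in WT and 22.0, 15.2 and 15.1 FPKM in Cdk1Liv-/- hepatocytes and rose by 1.37 (standard error 0.18, adjusted p = 0.00884). The chaperone *Hspa5* was at 249.6, 267 and 250.3 FPKM in WT and 373, 319 and 307 FPKM in Cdk1Liv-/- hepatocytes (log2 fold change 0.38, adjusted p = 0.0602), and missed the test without WT replicates 1, 2 or 3 or Cdk1Liv-/- replicate 2 (adjusted p up to 0.167). Of 34 tested NRF2 targets and metallothioneins, 13 rose, 0 fell and 8 were called higher. Of the members, 5 were called higher without Cdk1Liv-/- replicate 1. *Gpx3*, a secreted glutathione peroxidase, was at 1.55, 1.06 and 3.96 FPKM in WT and 40.6, 18.7 and 34.5 FPKM in Cdk1Liv-/- hepatocytes and rose by 3.64 (standard error 0.46, adjusted p = 0.00721). *Nqo1*, the standard reporter of NRF2, was at 4.56, 4.13 and 3.54 FPKM in WT and 8.36, 8.71 and 8.44 FPKM in Cdk1Liv-/- hepatocytes and rose by 0.98 (standard error 0.12, adjusted p = 0.00678). The metallothionein *Mt1* and haem oxygenase *Hmox1* overlapped between the genotypes, with log2 fold changes of 1.66 and -0.39 (adjusted p = 0.197 and 0.630).

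The growth hormone and IGF axis held falls and rises in similar number, 4 and 5 of 25 tested genes. The number that rose became 2 without Cdk1Liv-/- replicate 3 and 3 without WT replicates 1, 2 or 3 or Cdk1Liv-/- replicate 2. The falls numbered 1 without WT replicate 1. *Igfbp3*, a carrier of IGF1 in plasma that is made mainly by non-parenchymal liver cells, was at 27.6, 14.6 and 58.8 FPKM in WT and 5.08, 3.75 and 3.78 FPKM in Cdk1Liv-/- hepatocytes and fell (log2 fold change -2.65, standard error 0.47, adjusted p = 0.0214), with WT replicate 3 the highest library. *Igf1* itself was at 257, 233 and 218 FPKM in WT and 145, 222 and 173 FPKM in Cdk1Liv-/- hepatocytes and did not pass (log2 fold change -0.41, adjusted p = 0.166). Of 22 tested clock genes, 3 rose and 1 fell, beside 12.1% of all genes that passed as higher and 6.61% as lower. Of the members, 1 rose without WT replicates 2 or 3 or Cdk1Liv-/- replicate 3. *Nr1d1*, the repressor REV-ERB alpha, was at 5.06, 3.22 and 5.83 FPKM in WT and 12.3, 11.7 and 16.4 FPKM in Cdk1Liv-/- hepatocytes and rose by 1.45 (adjusted p = 0.0160), while its target *Arntl* overlapped between the genotypes (log2 fold change -0.16, adjusted p = 0.706).

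**Figure D4:**
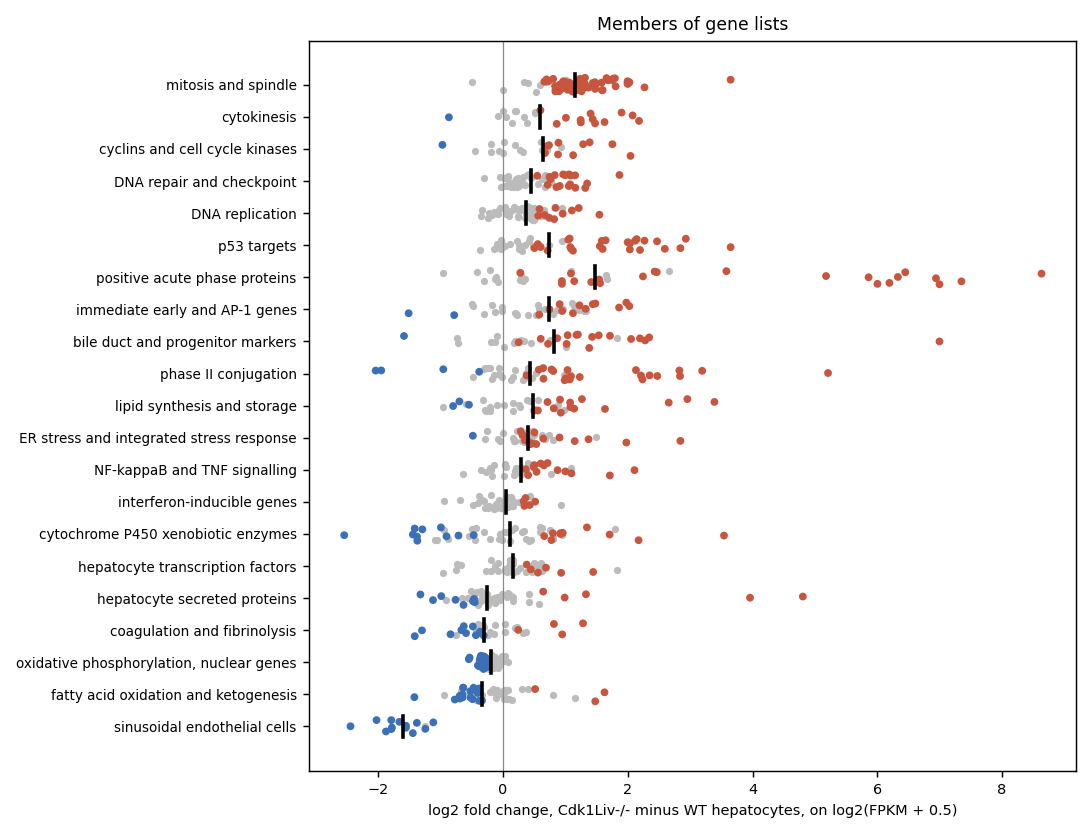
Log2 fold changes of the tested members of 21 gene lists in Cdk1Liv-/- against WT hepatocytes. Each point is a gene, red if it rose and blue if it fell (adjusted p of at most 0.1) and grey otherwise, and the black bar is the median of the list. Mitosis genes lie almost wholly to the right of 0 with a median of 1.15, acute phase proteins reach furthest, and sinusoidal endothelial markers lie wholly to the left.

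Most markers of sinusoidal endothelial cells fell. All 14 were tested, 13 fell, and their median log2 fold change was -1.61. The falls numbered 5 without WT replicate 1 and 6 without Cdk1Liv-/- replicates 2 or 3. Of the members, 5 were called lower without WT replicate 1 and 6 without Cdk1Liv-/- replicates 2 or 3. *Lyve1*, a hyaluronan receptor of these cells, was at 9.12, 6.01 and 22.9 FPKM in WT and 1.99, 1.07 and 1.82 FPKM in Cdk1Liv-/- hepatocytes and fell (log2 fold change -2.44, standard error 0.48, adjusted p = 0.0284). *Kdr*, the receptor of vascular endothelial growth factor, was at 12.6, 6.22 and 16.6 FPKM in WT and 3.11, 2.70 and 2.63 FPKM in Cdk1Liv-/- hepatocytes and fell (log2 fold change -1.79, standard error 0.34, adjusted p = 0.0254). Without WT replicate 3, the library highest in these markers, their log2 fold changes were -1.92 and -1.50 (adjusted p = 0.0288 and 0.0544). In whole liver the median of the same 14 markers was 0.05. *Stab2*, a scavenger receptor, was at 23.7, 16.9 and 44.2 FPKM in WT and 9.95, 7.91 and 10.1 FPKM in Cdk1Liv-/- hepatocytes (log2 fold change -1.45, adjusted p = 0.0473) and missed the test without WT replicate 1 or Cdk1Liv-/- replicates 1, 2 or 3 (adjusted p up to 0.128). Of 16 tested markers of Kupffer cells and macrophages, 3 fell and 0 rose, with a median of -1.06. The median was -0.68 without WT replicate 3. The number that fell became 1 without WT replicates 1 or 3 or Cdk1Liv-/- replicates 1, 2 or 3 and 14 without WT replicate 2. Their marker *Clec4f* did not pass (log2 fold change -1.07, adjusted p = 0.198).

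Some genes present in WT hepatocytes were much lower in, or nearly absent from, Cdk1Liv-/- hepatocytes. Pancreatic amylase *Amy2a1* (ENSMUSG00000070360, chromosome 3) was at 14.8, 15.3 and 5.19 FPKM in WT and 0.29, 0.02 and 0.03 FPKM in Cdk1Liv-/- hepatocytes, and *Amy2a2*, *Amy2a3* and *Amy2a4*, which have the same 12 values as each other, were at 9.41, 7.49 and 2.97 FPKM in WT and 0.11, 0.01 and 0 FPKM in Cdk1Liv-/- hepatocytes. The pancreatic lipase relative *Pnliprp1* was at 23.8, 16.5 and 9.56 FPKM in WT and 1.5, 1.52 and 0.84 FPKM in Cdk1Liv-/- hepatocytes and fell (log2 fold change -3.20, adjusted p = 0.00509). All 5 are among the 12 tested genes of the pancreatic list, and no other member passed. *Prok1*, a secreted peptide gene on chromosome 3 like the amylases, was at 18.8, 15.5 and 11.4 FPKM in WT and 0.51, 3.06 and 0.75 FPKM in Cdk1Liv-/- hepatocytes and fell (log2 fold change -3.23). *Trim12a*, an innate immune gene with close copies, was at 4.17, 2.35 and 4.58 FPKM in WT and 0.02, 0.01 and 0.01 FPKM in Cdk1Liv-/- hepatocytes and fell (log2 fold change -2.99). Cdk1Liv-/- against WT whole liver gave log2 fold changes of -5.10 for *Amy2a1*, -4.47 for each of *Amy2a2*, *Amy2a3* and *Amy2a4*, and -2.16 for *Pnliprp1*. That comparison gave -3.74 for *Trim12a* and only -0.77 for *Prok1*. Whether these changes came from the loss of *Cdk1* or from another difference between the mice was not tested.

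Of 33 tested KRAB zinc finger genes of the Gm14 series, most of them in a cluster on chromosome 2, 13 fell and 4 rose, and 13 were called lower and 1 higher. *Gm14305* was at 2.77, 1.6 and 2.05 FPKM and *Gm4245* at 1.57, 1.85 and 1.98 FPKM in WT, and both were listed at 0 in all 3 Cdk1Liv-/- libraries. *Gm14403* went the other way, at 1.78, 1.48 and 0.99 FPKM in WT and 5.25, 4.75 and 5.11 FPKM in Cdk1Liv-/- hepatocytes, and rose by 1.55 (adjusted p = 0.00674). *Gm21742* and *Gm21857*, pseudogenes that the annotation puts on chromosome Y, were at 9.28, 7.44 and 10.1 FPKM and 13.4, 14.2 and 13 FPKM in WT, and at 0, 0 and 0 FPKM and 0, 0.51 and 0.95 FPKM in Cdk1Liv-/- hepatocytes. The Y-linked gene *Ddx3y*, named after its values were seen, was expressed in all 6 libraries, at 22.6, 19.3 and 17.5 FPKM in WT and 14.3, 19.4 and 19.1 FPKM in Cdk1Liv-/- hepatocytes, with a log2 change of -0.17 (adjusted p = 0.498). Genes of these families are nearly identical to each other and the assignment of reads among them is uncertain. Between the genotypes of whole liver, the log2 fold change was -2.76 for *Gm14305*, -0.30 for *Gm4245* and -0.26 for *Gm14403*. It was -3.85 for *Gm21742* and -3.98 for *Gm21857*, which include a Cdk1Liv-/- library with Y-linked genes at 0, described below. Whether the changes of these families came from the loss of *Cdk1* or from another difference between the mice was not tested.

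The change in hepatocytes was set against that in whole liver by an interaction term (genotype by compartment) in a fit of all 12 libraries. The Y-linked genes *Ddx3y*, *Eif2s3y*, *Kdm5d* and *Uty*, chosen after their values were seen, were listed at 0 in whole liver Cdk1Liv-/- replicate 3 and at 2.61 FPKM or more in each of the other 11 libraries, which touches the whole-liver side of this comparison. *Prodh* rose in hepatocytes and had a log2 fold change of -0.24 in whole liver, a difference of 2.86 (interaction adjusted p = 0.0544). *Acmsd* likewise rose in hepatocytes and was at -0.34 in whole liver, a difference of 2.33 (interaction adjusted p = 0.0484). *Il1b*, lower in Cdk1Liv-/- hepatocytes, had a log2 fold change of 1.48 in whole liver, a difference of -3.49 (interaction adjusted p = 0.0103). *Rrm2* rose further in hepatocytes than in whole liver, where its log2 fold change was 0.29 (interaction adjusted p = 0.0431). Without WT whole liver replicate 1, the difference of *Il1b* passed (interaction adjusted p = 0.0406), while those of *Prodh*, *Acmsd* and *Rrm2* did not (interaction adjusted p = 0.142, 0.135 and 0.122). For *Ccnb1* and *Psrc1* no difference passed the test (whole liver 1.37 and 3.34, interaction adjusted p = 0.312 and 0.425).

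**Figure D5:**
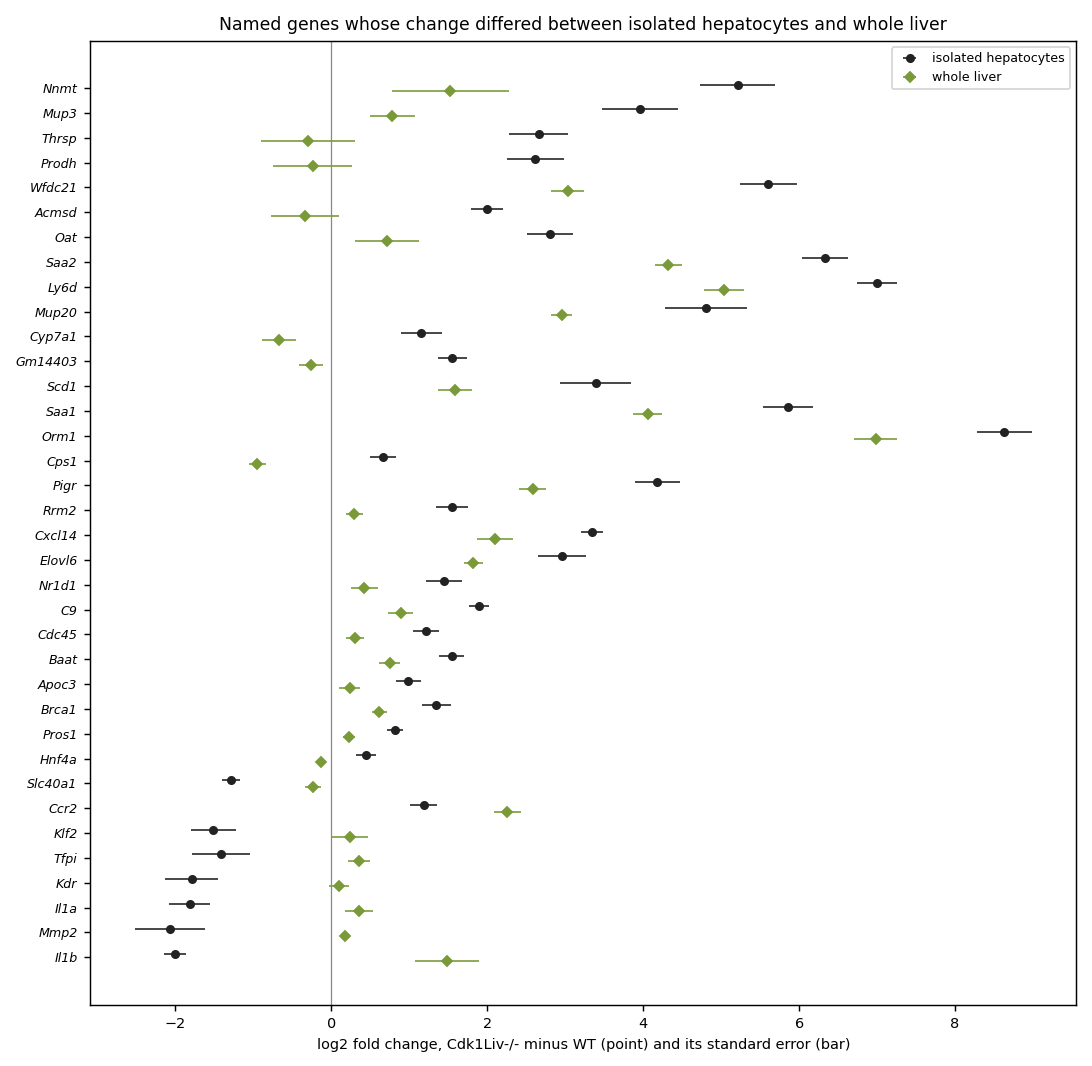
Log2 fold change of Cdk1Liv-/- against WT in isolated hepatocytes (black circles) and in whole liver (green diamonds), with standard errors, for the 36 named genes that passed the test in hepatocytes and whose difference between hepatocytes and whole liver also passed under 3 scalings. Genes are ordered by the difference, with *Il1b* the lowest and *Nnmt* the highest.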

How the data were processed

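Polyadenylated RNA of 6 hepatocyte and 6 whole-liver libraries was sequenced as 75-base single reads from TruSeq Stranded libraries. Per the submitters' processing notes, the authors aligned reads to mm10 with STAR (version not given in the sources used here) and quantified genes with RSEM 1.2.31. The deposited values are FPKM by the authors, 1 column per library, not scaled between libraries. Read counts were not used here, so depth was estimated from the steps between low FPKM of genes of 300 to 900 bases, where 69.9% to 72.8% of values in the hepatocyte libraries lay within 0.15 reads of a whole number.

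Groups came from the labels. The genotypes were compared in the 6 hepatocyte libraries with limma 3.58.1 in R 4.3.3 (eBayes with a trend of the spread) on log2(FPKM + 0.5), two-sided, with Benjamini-Hochberg adjustment over the 17386 of 47069 listed genes with a mean of at least 0.1 FPKM over the 12 libraries. Every adjusted p in the text is limma's. The interaction of genotype and compartment was fitted over all 12 libraries. The scripts were tested on simulated data. Tables and figures used Python 3.11.15, pandas 2.3.3 and matplotlib 3.10.9, and 17299 tested genes were matched to GENCODE M21 for chromosomes. Alternatives covered the pseudocount, the filter, the scaling, the test, the samples in the fit, a replicate block and leaving out each library. Among the tested genes, 75 have the same 12 values as another.

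The comparison, the 49 gene lists and the rule for named genes were chosen with earlier results of these data known, so list counts are descriptions and no list was tested as a set. The rule names *Cdk1*, the 10 largest rises and 10 largest falls among called genes with a mean of at least 1 FPKM and no overlap, the 12 most abundant called genes, the 10 largest rises and falls in FPKM, genes listed at 0 in 1 genotype, and of each list the first 4 symbols and the 3 highest and 3 lowest members. Not all genes it names are printed. *Trp53*, *Crp*, *Fga*, *Ube2c*, *Cdc20* and *Ddx3y* were named after their values were seen.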

Additional observations from a re-analysis of the deposited data

Results flagged for a closer look

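For 36 of the genes named above, the change between Cdk1Liv-/- and WT passed the test in isolated hepatocytes, and its difference from the change in whole liver passed an interaction test in limma (adjusted p of at most 0.1) with FPKM as deposited, with median-ratio size factors and with the same sum in every library. Differences are given as the log2 fold change in hepatocytes minus that in whole liver. Of the 36, only 6 passed the interaction test without WT whole liver replicate 1, 17 without WT whole liver replicate 2 and 23 without WT whole liver replicate 3, while 25 to 34 passed with any other library left out.

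Among acute phase and surface genes the change was larger in hepatocytes, with a difference of 1.65 for *Orm1*, 1.80 for *Saa1*, 2.01 for *Saa2*, 2.58 for *Wfdc21*, 1.96 for *Ly6d* and 1.6 for *Pigr*. It was 1.0 for *C9*, 1.24 for *Cxcl14* and 0.59 for *Pros1*. In metabolic genes the difference was 3.68 for *Nnmt*, 2.96 for *Thrsp*, 2.86 for *Prodh*, 2.33 for *Acmsd* and 2.09 for *Oat*. It was 1.83 for *Cyp7a1*, 1.81 for *Scd1*, 1.61 for *Cps1*, 1.14 for *Elovl6*, 0.79 for *Baat* and 0.75 for *Apoc3*. Whole-liver log2 fold changes were below 0 for *Cps1* (-0.95), *Cyp7a1* (-0.67), *Acmsd* (-0.34), *Thrsp* (-0.30) and *Prodh* (-0.24), and for *Gm14403* (-0.26) and *Hnf4a* (-0.14), named below. The urinary protein genes differed by 3.18 for *Mup3* and 1.86 for *Mup20*. The regulators *Hnf4a* and *Nr1d1* differed by 0.58 and 1.02, and the zinc finger gene *Gm14403* by 1.82. Genes of replication and repair differed by 1.25 for *Rrm2*, 0.91 for *Cdc45* and 0.73 for *Brca1*.

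In 8 genes the change in hepatocytes was the lower of both. The difference was -3.49 for *Il1b*, -2.17 for *Il1a*, -2.24 for *Mmp2*, -1.89 for *Kdr*, -1.75 for *Klf2*, -1.77 for *Tfpi*, -1.07 for *Ccr2* and -1.06 for *Slc40a1*. Each is known to be expressed in cells other than hepatocytes, though not all in the same type. The summed markers of sinusoidal endothelial cells were lower in each Cdk1Liv-/- hepatocyte library than in any WT one. Those of stellate cells were too, but overlapped without *Reln*, and those of Kupffer cells overlapped without *Slc40a1*. The monocyte marker *Ccr2* rose in hepatocytes, by 1.18, and had a log2 fold change of 2.255 in whole liver. The part of other cells in these differences was not tested.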

How the results depend on the processing

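Of the 143 named genes that passed the test, 125 passed with each of the 6 libraries left out in turn and 119 passed under every other setting. All 143 kept their direction under every alternative run. Many of these genes were named for their large changes in the same libraries, so these counts do not measure stability over all genes. Counts over all genes are given below. Of the 49 list medians, 39 kept their sign under all settings.

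The number of genes called higher was 1114 with a pseudocount of 0.1, and the number called lower 647 with it and 248 with a pseudocount of 1. Without the filter on low values, 165 genes were called lower, 714 passed as lower, and the interaction passed above for 237 and below for 678. With all 12 libraries in 1 fit, 3434 passed as higher and 2072 as lower. With median-ratio size factors, 491 passed the interaction below and 549 above, against 1303 and 409 as reported. The share of called genes that were higher was then 59.0% in place of 65.9%. With FPKM as deposited, this share was 51.9% without WT replicate 2, 79.3% without WT replicate 1 and 80.1% without Cdk1Liv-/- replicate 3. It was 78.8% without the filter and 75.8% with the replicate block. The cause of these differences was not tested.

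With the replicate number as a block, 197 genes were called lower, 1048 passed as higher and 408 as lower, and the interaction passed above for 201 and below for 455. The numbers share only a name, since the deviations of same-numbered WT and Cdk1Liv-/- libraries had correlations of -0.32, 0.02 and -0.09 across genes.

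With each hepatocyte library left out, 638 to 711 genes were called higher and 168 to 592 lower, and 1157 to 1622 passed as higher and 402 to 1224 as lower. With each of the 12 libraries left out, the interaction passed above for 35 to 487 genes and below for 43 to 2232, the lowest counts both without WT whole liver replicate 1 and the highest below without WT hepatocyte replicate 2. Genes near the filter of 0.1 FPKM rest on few fragments, and small differences in them were not detectable at this depth.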

Other observations

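Some abundant or absent genes of the hepatocytes belong to none of the groups described above. *Ly6e*, a GPI-anchored surface protein, was at 134, 113 and 161 FPKM in WT and 386, 562 and 488 FPKM in Cdk1Liv-/- hepatocytes and rose by 1.81 on the log2 scale (standard error 0.18, limma adjusted p = 0.00395). The carboxylesterase *Ces1c* was at 2000.2, 2094 and 1866 FPKM in WT and 1147, 1236 and 972 FPKM in Cdk1Liv-/- hepatocytes and fell (log2 fold change -0.83, adjusted p = 0.0141). The microsomal glutathione transferase *Mgst1* was at 1532, 1470.1 and 1156 FPKM in WT and 2345, 2176 and 2568 FPKM in Cdk1Liv-/- hepatocytes and rose by 0.78 (adjusted p = 0.0283). In these 3 genes the genotypes did not overlap.

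Short or unnamed transcripts were listed at 0 in all Cdk1Liv-/- hepatocytes and at 1 FPKM or more in all WT hepatocytes. They were the precursor of the microRNA *Mir29c*, at 1.01, 1.24 and 3.88 FPKM in WT, the small nucleolar RNA *Snord35a*, at 2.41, 1.56 and 1.27 FPKM, and the gene model *RP24-97D9.7*, at 1.48, 1.28 and 1.04 FPKM. Precursors of this length rest on few reads in libraries of polyadenylated RNA, and the values are given without a fold change.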
